A study of Trametes coccinea with 9 samples.

Results

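The pine cultures of the white-rot fungus *Pycnoporus coccineus* are compared here with its maltose cultures across the whole transcriptome. The libraries were chosen by their labels: the 3 grown on pine, replicates 1 to 3, against the 3 grown on maltose, replicates 1 to 3, which makes 6 of the 9 libraries of the series. The other 3, grown on aspen, entered the same model and are used where a transcript was called on pine and not on aspen. All 9 were liquid cultures of the monokaryotic strain CIRM-BRFM 310, grown in triplicate per medium and harvested after 3 days at 30 °C. Poly A RNA of the mycelium, frozen together with what was left of the solid wood, was sequenced as paired reads. The pine medium held 15 g/l of ground pine, bark included, with 2.5 g/l maltose. The maltose medium held 20 g/l maltose and no wood. What pine did to a transcript and what the lower maltose did cannot be told apart. The aspen medium likewise held 15 g/l of wood and 2.5 g/l maltose, but the aspen was milled in another way. The strain came from 1 basidiospore, so the values describe 1 genotype.

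White-rot fungi break down all the polymers of wood. Cellulose is opened by cellobiohydrolases, endoglucanases and lytic polysaccharide monooxygenases and taken down to glucose by β-glucosidases. Pine hemicellulose is rich in galactoglucomannan, which mannanases attack, and also holds arabinoglucuronoxylan. Lignin is oxidized by class II peroxidases with hydrogen peroxide that oxidases supply, and softwood resin adds extractives that cytochrome P450s may act on inside the cell.

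The deposited tables gave raw counts for 12690 genes, with 28399534 to 38654866 counts per library on pine and 29889534 to 35011152 on maltose. Both reads of a pair were counted, so counts are not independent molecules. Of these genes, 11130 had a mean of at least 5 counts and were tested, and 838 had no count in any library. Levels are given as CPM (counts relative to library size, TMM scaled), always for replicates 1, 2 and 3 in that order. They compare 1 gene between cultures, not genes with each other, because they are not divided by gene length. Fold changes are pine over maltose on the log2 scale, with a standard error (SE) and an adjusted p (Benjamini-Hochberg, over all genes tested) from the quasi-likelihood test of edgeR. The words rose and fell stand for an adjusted p under 0.05. For a 4-fold call, the log2 fold change had to reach 2 or -2 and the Bonferroni adjusted p had to be under 0.05 as well. In such pooled mycelium, fewer hyphae that transcribe a gene and less of its RNA per hypha cannot be told apart.

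The response to pine took in 6446 of the 11130 transcripts, or 57.9%. Of them, 3235 rose on pine (29.1%) and 3211 fell (28.8%), as shares of all transcripts tested, whose median log2 fold change was -0.03. The large changes leaned upwards: the 4-fold call was met by 726 transcripts higher on pine (6.52%) and by 382 lower on pine (3.43%). Among the transcripts that rose, 213 had a change between 16-fold and 64-fold and 52 a larger one, against 74 and 18 among those that fell. In 3380 transcripts every pine culture lay above every maltose culture, and in 3565 every pine culture lay below. The 726 raised transcripts took 26.0%, 26.4% and 24.9% of all counts on pine, against 3.46%, 3.81% and 3.91% on maltose. The 382 lowered ones took 1.06%, 0.723% and 0.919% on pine, against 13.4%, 13.5% and 13.1% on maltose. Few of these transcripts were without counts on one of the media: 4 of the raised ones had at most 3 counts in each maltose library, and 2 of the lowered ones at most 3 counts in each pine library. Scaling by library size alone moved the median of all transcripts to -0.39 and turned the split of large changes to 484 higher and 581 lower, so the upward lean is relative to the bulk of transcripts and turns round when levels are set against total counts. Without pine replicate 2, the count of transcripts at least 4-fold lower was 252.

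**Figure D1:**
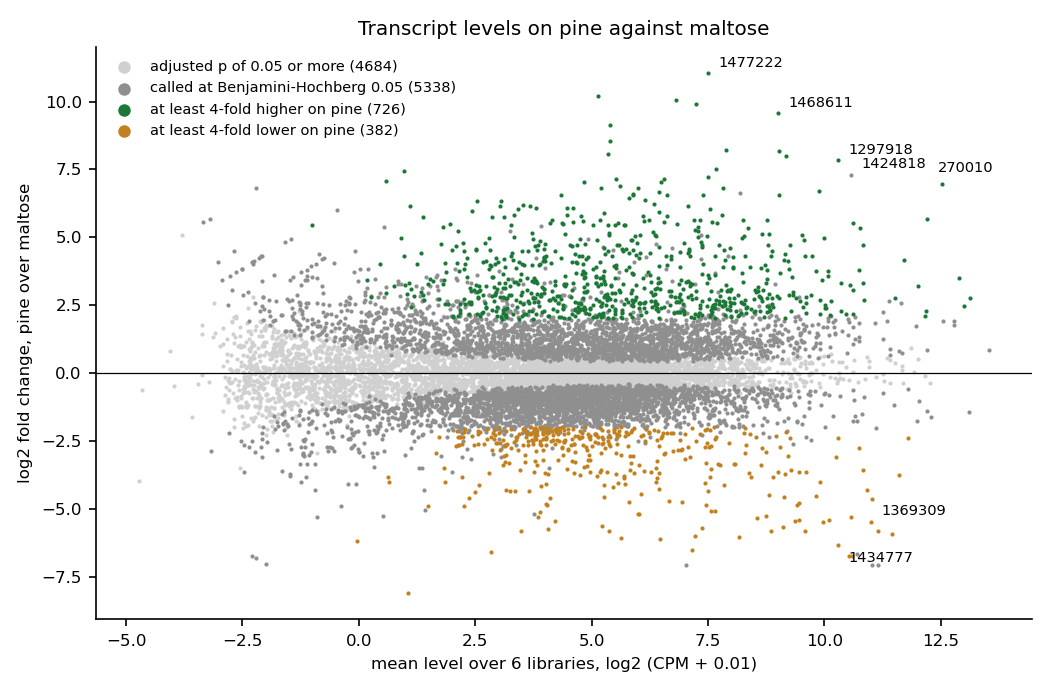
Log2 fold change of pine over maltose against the mean level over the 6 libraries, as log2 (CPM + 0.01), for the 11130 transcripts tested, each a point coloured by its call. The 726 green points reach a log2 fold change of 11.05 (1477222), the 382 ochre points lie below -2, and GH7 1424818 is grey because it missed the Bonferroni threshold.

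The largest rise of all belonged to a run of 4 neighbouring genes that encode proteins of unknown function with a signal peptide for secretion. Gene 1477222 had 481, 302 and 297 CPM on pine, against 0.118, 0.0553 and 0.316 CPM on maltose (log2 fold change 11.05, SE 0.47, adjusted p = 1.6e-08). Its neighbour 271638 had 62.6, 65.4 and 126 CPM on pine, against 0.237, 0.0553 and 0.158 CPM on maltose (log2 fold change 9.12, SE 0.46, adjusted p = 2.7e-08). Both were close to 0 on maltose and well counted in all 3 pine cultures. The maltose levels of 1477222 rest on 4, 2 and 12 counts and those of 271638 on 8, 2 and 6 counts, so the size of either rise is known only roughly. The third of the run, 1458725, stayed low, with 5.65, 4.99 and 4.42 CPM on pine, against 0.652, 0.387 and 0.526 CPM on maltose (log2 fold change 3.26, SE 0.30, adjusted p = 1.4e-06). The fourth, 270010, was among the 10 transcripts with the most counts on pine, with 12672, 11798 and 10879 CPM on pine, against 87.6, 137 and 62.6 CPM on maltose (log2 fold change 6.94, SE 0.36, adjusted p = 3.1e-08). With 1 gene between, it is followed by 1477226, another protein of unknown function with a signal peptide, which had 11384, 9431 and 7097 CPM on pine, against 193, 226 and 126 CPM on maltose (log2 fold change 5.68, SE 0.33, adjusted p = 5.6e-08). The gene between them did not pass the test. How alike the sequences of these neighbours are was not examined, so the split of reads among them is uncertain. On aspen, 270010 had 5763, 5372 and 5998 CPM and 1477226 had 6291, 5842 and 5955 CPM, and pine over aspen was 1.04 (adjusted p = 0.014) for 270010 and 0.63 (adjusted p = 0.094) for 1477226.

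Other genes with a 4-fold call were direct neighbours as well. Over all transcripts tested, 6.52% met that call upwards and 3.43% downwards. How many runs such shares would give without regard to gene order was not tested. Among the 12680 genes that could be placed in the order of the reference assembly Pycco1, 80 runs of 2 to 4 direct neighbours that all met the 4-fold call upwards held 182 of the 726 raised transcripts, 4 of them with 4 genes. For the lowered transcripts there were 24 runs with 56 genes, of which 3 had 4 genes. In 1 of these, the proteins of unknown function 440257, 1435757 and 439739 had log2 fold changes of -3.39, -4.004 and -3.80. A second held the P450 gene 1461855 beside 3 genes of unknown function, the first of which, 1376903, had 5.25, 1.37 and 3.62 CPM on pine, against 135, 135 and 106 CPM on maltose (log2 fold change -5.19, SE 0.42, adjusted p = 5.7e-07).

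Other transcripts of unknown function stood among the largest rises. Gene 1437297, with a thaumatin-like domain and a signal peptide, had 373, 310.5 and 228 CPM on pine, against 0.178, 0.221 and 0.526 CPM on maltose (log2 fold change 9.91, SE 0.42, adjusted p = 1.6e-08). The 3 pine cultures were close to each other and far above every maltose culture. Its maltose levels rest on 6, 8 and 20 counts. Gene 448186, without a signal peptide, had 118, 82.4 and 11.5 CPM on pine, against 0.0889, 0.0277 and 0.0526 CPM on maltose. Its maltose levels rest on 3, 1 and 2 counts, so no fold change is given. Gene 1468135, with a signal peptide, had 369.5, 266 and 38.1 CPM on pine, against 0.326, 0.083 and 0.21 CPM on maltose (log2 fold change 10.07, SE 0.85, adjusted p = 8.3e-07). Its maltose levels rest on 11, 3 and 8 counts, so the size of its rise is known only roughly. In 448186 and 1468135, replicate 3 was the lowest pine culture. Gene 1447350, also without a signal peptide, had 50.3, 98.8 and 94.5 CPM on pine, against 0.355, 0.0553 and 0.474 CPM on maltose (log2 fold change 8.08, SE 0.49, adjusted p = 7.2e-08). The maltose levels of 1447350 rest on 12, 2 and 18 counts. Of the 297 tested transcripts for unknown proteins with a signal peptide, 162 rose and 66 fell, with a median log2 fold change of 0.98. Of the 1809 without one, 889 rose and 502 fell, with a median of 0.65. The risen were 54.5% of those with a signal peptide and 49.1% of those without, against 29.1% of all transcripts tested. The fallen were 22.2% and 27.8%, against 28.8% of all, so those without a signal peptide fell at about the share over all. The study listed these transcripts because it detected them in these same samples, so the counts cannot stand as independent evidence of direction. Outside the study's tables, 1438837 had 511, 1172 and 1452 CPM on pine, against 1.90, 3.07 and 5.81 CPM on maltose (log2 fold change 8.18, SE 0.57, adjusted p = 1.9e-07). All 3 pine cultures stood far above the highest maltose culture.

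Cellulose-active enzymes rose together, and the cellobiohydrolases were the list with the largest median SD among pine cultures, 1.45 on log2 (CPM + 1). All 4 cellobiohydrolase transcripts rose, with a median log2 fold change of 5.36, but none of the 4 passed the Bonferroni threshold of the 4-fold call. Among all transcripts tested, 29.1% rose and 28.8% fell. GH7 1424818, a family of processive cellobiohydrolases, had 2460.1, 6235 and 441 CPM on pine, against 8.09, 5.62 and 43.96 CPM on maltose (log2 fold change 7.31, SE 1.04, adjusted p = 6.1e-05, Bonferroni adjusted p = 0.1). The lowest pine culture, replicate 3, was still well above the highest maltose culture, and pine replicate 2 lay above both its partners. GH6 1357326, which carries a cellulose-binding module of family CBM1, had 489, 1161 and 93.4 CPM on pine, against 2.93, 2.21 and 12.3 CPM on maltose (log2 fold change 6.64, SE 0.92, adjusted p = 4.8e-05). Maltose replicate 3 was the highest maltose culture for both. As a share of all counts, the 4 transcripts held 0.273%, 0.637% and 0.0527% on pine, against 0.00164%, 0.00118% and 0.00976% on maltose.

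Of 11 endoglucanases and xyloglucanases, which cut within the glucan chain, 8 rose and none fell, with a median of 4.76. The risen were 72.7%, against 29.1% of all transcripts tested. GH45 1433077 had 139, 279 and 144 CPM on pine, against 0.889, 0.747 and 2.29 CPM on maltose (log2 fold change 7.15, SE 0.49, adjusted p = 1.8e-07). GH12 1358049 had 88.9, 231 and 61.8 CPM on pine, against 1.72, 0.719 and 0.947 CPM on maltose (log2 fold change 6.82, SE 0.57, adjusted p = 7.3e-07). At the lower end, GH5_5 1434718 had 23.3, 17.3 and 5.30 CPM on pine, against 1.66, 1.72 and 3.95 CPM on maltose (log2 fold change 2.65, SE 0.53, adjusted p = 0.00087). Its lowest pine culture and its highest maltose culture were close, both in replicate 3. All 15 AA9 transcripts, for copper enzymes that cut crystalline cellulose oxidatively, rose, with a median of 3.84. AA9 1466495 led them with 39.6, 173 and 38.3 CPM on pine, against 0.178, 0.221 and 0.263 CPM on maltose (log2 fold change 8.54, SE 0.72, adjusted p = 8.1e-07). Its maltose levels rest on 6, 8 and 10 counts, so the size of its rise is known only roughly. On aspen it had 12.5, 8.41 and 17.4 CPM, and pine over aspen was 2.71 (SE 0.51, adjusted p = 0.0023). AA9 1440889 rose by less, with 389.8, 507 and 574 CPM on pine, against 241, 245 and 172 CPM on maltose (log2 fold change 1.16, SE 0.23, adjusted p = 0.00082). On aspen this transcript had 163, 206 and 229.7 CPM and was not called over maltose, and pine over aspen was 1.30 (adjusted p = 0.0017). With scaling by library size alone, 13 of the 15 rose. Cellobiose dehydrogenase 1401955, the haem and flavin enzyme that can pass electrons to AA9 enzymes, had 192, 362 and 59.8 CPM on pine, against 3.23, 4.51 and 17.6 CPM on maltose (log2 fold change 4.59, SE 0.72, adjusted p = 0.00014). Among 9 transcripts of families GH1 and GH3, which hold the β-glucosidases, 8 rose, led by GH3 1411666 with 114, 97.8 and 48.6 CPM on pine, against 4.95, 4.12 and 8.52 CPM on maltose (log2 fold change 3.89, SE 0.36, adjusted p = 1.7e-06). Across families, 20 of the 22 CBM1-bearing transcripts rose (90.9%) and none fell, against 29.1% risen and 28.8% fallen over all transcripts tested.

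Hemicellulose-active enzymes also rose, with a single fall among the mannanases. Of 9 tested mannan-active transcripts 8 rose (88.9%) and 1 fell (11.1%), with a median of 2.24. The other list member, a GH27, had too few counts to be tested. Among all transcripts tested, 29.1% rose and 28.8% fell. The CBM1-bearing endo-mannanase GH5_7 1359888 had 392, 811 and 111 CPM on pine, against 4.77, 4.95 and 13.3 CPM on maltose (log2 fold change 5.83, SE 0.69, adjusted p = 1.3e-05). GH27 1440257, of an α-galactosidase family that removes galactose side groups, had 329.7, 398 and 253 CPM on pine, against 27.4, 32.7 and 37.8 CPM on maltose (log2 fold change 3.32, SE 0.25, adjusted p = 2.9e-07). A second GH5_7 mannanase went the other way: 236998 had 1.53, 1.54 and 1.37 CPM on pine, against 16.8, 17.8 and 12.7 CPM on maltose (log2 fold change -3.41, SE 0.26, adjusted p = 3.9e-07). Its cultures were tight on both media, and the groups were far apart.

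All 6 GH10 xylanases rose, with a median of 3.68. Among all transcripts tested, 29.1% rose and 28.8% fell. GH10 1435885 had 148, 338 and 29.6 CPM on pine, against 2.43, 2.41 and 3.53 CPM on maltose (log2 fold change 5.94, SE 0.72, adjusted p = 1.6e-05). GH10 1395316 was hardly transcribed on pine, with 3.63, 2.94 and 3.38 CPM, against 0.77, 0.775 and 1.47 CPM on maltose (log2 fold change 1.71, SE 0.27, adjusted p = 0.00013). On aspen this transcript reached 357, 342 and 284 CPM, and pine over aspen was -6.62 (SE 0.29, adjusted p = 5.3e-08), so it rose on pine at a far lower level. Of 7 xylan side-chain and exo-acting enzymes 6 rose, with a median of 5.05. GH43 1435501, of a family of arabinofuranosidases and xylosidases, had 643, 669 and 108 CPM on pine, against 1.18, 1.05 and 2.53 CPM on maltose (log2 fold change 8.21, SE 0.69, adjusted p = 7.8e-07). GH51 1462467, of an arabinofuranosidase family, had 19.7, 25.1 and 14.9 CPM on pine, against 0.0592, 0.387 and 0.579 CPM on maltose (log2 fold change 5.82, SE 0.49, adjusted p = 8.3e-07). Its maltose levels rest on 2, 14 and 22 counts. GH115 1426831, of the family that removes glucuronic acid from xylan, had 152, 140.3 and 46.4 CPM on pine, against 2.73, 1.99 and 6.71 CPM on maltose (log2 fold change 4.89, SE 0.53, adjusted p = 6.4e-06). Of 12 hemicellulose esterases 10 rose and none fell, led by the CBM1-bearing acetyl esterase family member CE16 1439328 with 228, 832 and 156 CPM on pine, against 1.51, 1.02 and 4.03 CPM on maltose (log2 fold change 7.53, SE 0.74, adjusted p = 2.6e-06).

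On the list of pectin-active enzymes 16 of 18 transcripts rose and 1 fell, with a median of 3.96. The risen were 88.9%, against 29.1% of all transcripts tested, and the fallen 5.56%, against 28.8%. The list includes lyases of family PL14, which the paper does not name among the families that degrade pectin. The polygalacturonase GH28 688728 had 147, 483 and 167 CPM on pine, against 1.93, 3.21 and 6.13 CPM on maltose (log2 fold change 6.14, SE 0.55, adjusted p = 1.3e-06). A second polygalacturonase, GH28 1370654, had 233, 521 and 104 CPM on pine, against 4.74, 5.20 and 7.47 CPM on maltose (log2 fold change 5.62, SE 0.55, adjusted p = 2.5e-06). The lyase PL14 1452408 had 1392, 2196 and 1564 CPM on pine, against 515, 509 and 337 CPM on maltose (log2 fold change 1.92, SE 0.26, adjusted p = 3.6e-05). The only fall was PL14 1390652, with 0.807, 1.09 and 0.804 CPM on pine, against 1.54, 2.07 and 2.63 CPM on maltose (log2 fold change -1.21, SE 0.48, adjusted p = 0.044), and it lost its call without any 1 of 5 libraries (all but maltose replicate 1).

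**Figure D2:**
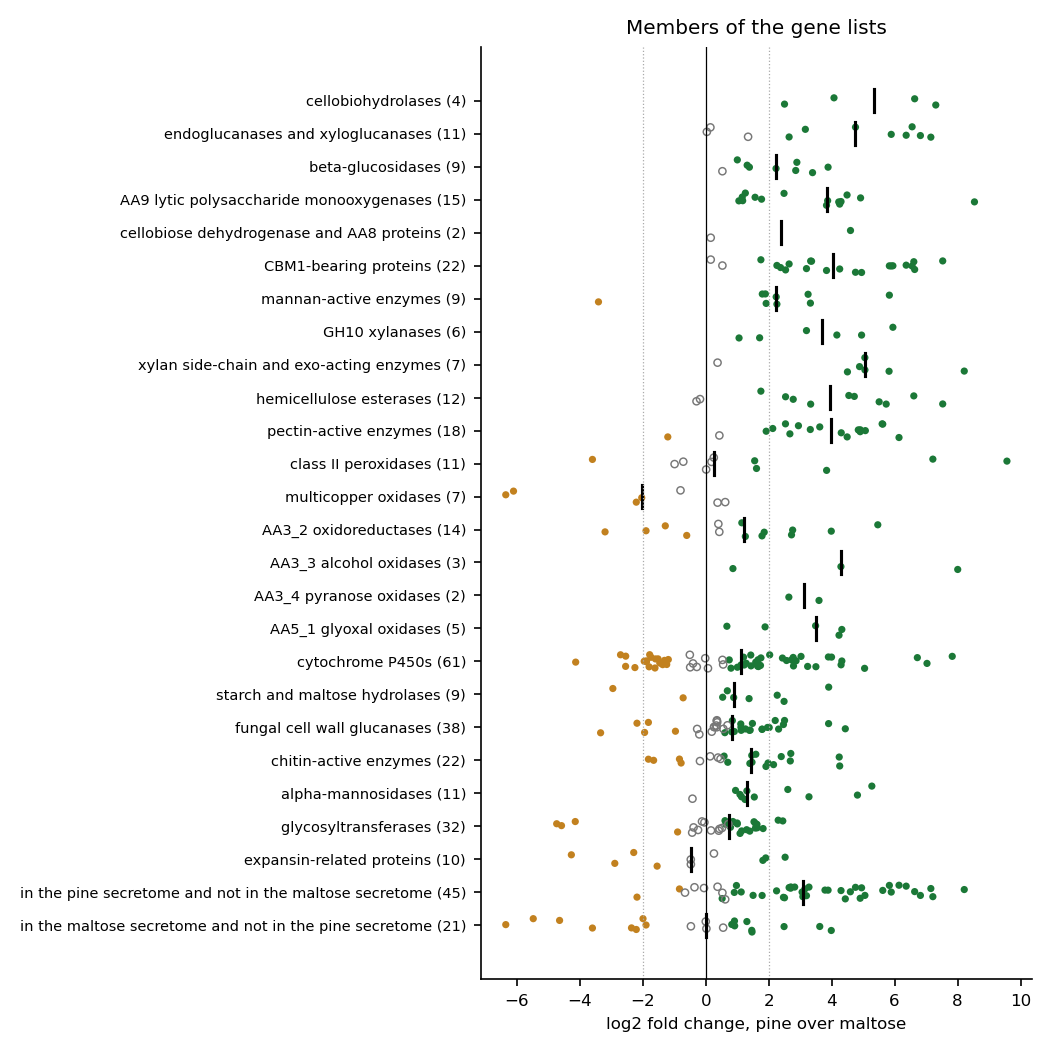
Log2 fold change of pine over maltose for each tested member of the gene lists, with the number of members in brackets; filled points passed the adjusted p threshold, open points did not, the black bar is the median and dotted lines mark a 4-fold change. The lists of cellulose-active, hemicellulose-active and pectin-active enzymes sit almost wholly to the right of 0. Class II peroxidases, P450s, starch and maltose hydrolases, cell wall glucanases and chitin-active enzymes lie on both sides, and the multicopper oxidases have a median of -2.03.

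The lignin-active enzymes split. Of 11 class II peroxidases, 5 rose, 1 fell and 5 did not pass the test, with a median of 0.26. The risen were 45.5% of the list, against 29.1% of all transcripts tested, and the fallen 9.09%, against 28.8%. The manganese peroxidase 1468611, which oxidizes lignin through diffusible manganese ions, had 368, 939 and 1791 CPM on pine, against 0.829, 1.49 and 1.74 CPM on maltose (log2 fold change 9.57, SE 0.66, adjusted p = 1.9e-07). A second short manganese peroxidase, 1436321, had 80.3, 401 and 601 CPM on pine, against 1.84, 1.69 and 3.74 CPM on maltose (log2 fold change 7.21, SE 0.71, adjusted p = 2.8e-06). In both, pine replicate 3 was the highest culture and replicate 1 the lowest, whereas replicate 3 was the lowest for the 4 cellobiohydrolases. The other pair of short manganese peroxidases did not pass the test. The lignin peroxidase 1431101, outside the naming rule, had 7.67, 11.6 and 19.9 CPM on pine, against 0.889, 0.885 and 0.947 CPM on maltose (log2 fold change 3.84, SE 0.39, adjusted p = 3.7e-06). The atypical versatile peroxidase 1438352 fell, with 10.95, 7.18 and 13.7 CPM on pine, against 144, 153 and 88.7 CPM on maltose (log2 fold change -3.60, SE 0.29, adjusted p = 5.2e-07). Without maltose replicate 2, 2 of the 11 fell.

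Laccases, multicopper oxidases that oxidize phenols with oxygen, went down for the most part. Of the 7 multicopper oxidases, 4 of the 5 of the laccase family AA1_1 fell, none of the list rose and 3 did not pass the test. The fallen were 57.1% of the list, against 28.8% of all transcripts tested. Laccase 1434777 had 61.1, 14.98 and 14.8 CPM on pine, against 2629, 2870.4 and 1929 CPM on maltose (log2 fold change -6.35, SE 0.56, adjusted p = 1.2e-06). Laccase 1363242 had 5.19, 0.958 and 1.37 CPM on pine, against 187, 213 and 127 CPM on maltose (log2 fold change -6.11, SE 0.55, adjusted p = 1.4e-06). In both, pine replicate 1 kept the highest level of the pine cultures. Laccase 1366139 was still well counted, with 790.5, 584 and 1234 CPM on pine, against 3967, 3900.3 and 2806 CPM on maltose (log2 fold change -2.03, SE 0.32, adjusted p = 0.00013). The list as a whole held 0.0884 ± 0.0339% of counts on pine, against 0.711 ± 0.0516% on maltose (SD, n = 3). Without maltose replicate 3 or without pine replicate 2, 1 multicopper oxidase passed as raised.

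Families of oxidases that can supply hydrogen peroxide rose in most cases. All 5 glyoxal oxidases (AA5_1), all 3 AA3_3 alcohol oxidases and both AA3_4 pyranose oxidases rose, and 8 of 14 AA3_2 transcripts rose while 4 fell. For AA3_2 that is 57.1% risen, against 29.1% of all transcripts tested, and 28.6% fallen, near the 28.8% of all. The rise of 1 glyoxal oxidase, 1357891, had an adjusted p of 0.041 and was lost without any 1 of the maltose libraries or of pine replicates 2 and 3. The alcohol oxidase 1368318 had 1450.0, 1370.3 and 662 CPM on pine, against 3.61, 4.12 and 5.81 CPM on maltose (log2 fold change 8.003, SE 0.49, adjusted p = 7.6e-08). The pyranose oxidase 1471985 had 6297, 5106 and 2459 CPM on pine, against 955, 563 and 706 CPM on maltose (log2 fold change 2.64, SE 0.40, adjusted p = 9.5e-05). On aspen it stayed at 616, 827 and 1431 CPM, with a log2 fold change of 0.37 (adjusted p = 0.43), and pine over aspen was 2.27 (adjusted p = 0.0014). It missed the Bonferroni threshold on pine and is thus not among those counted further on as changed on pine and not called on aspen. The second pyranose oxidase, 1440372, had 131, 228 and 37.2 CPM on pine, against 9.09, 9.24 and 14.4 CPM on maltose (log2 fold change 3.60, SE 0.56, adjusted p = 0.00013). Replicate 3 was the lowest pine culture for both pyranose oxidases. Glyoxal oxidase 1376269 had 6.92, 28.6 and 53.6 CPM on pine, against 1.13, 1.66 and 1.92 CPM on maltose (log2 fold change 4.23, SE 0.59, adjusted p = 5e-05). Glyoxal oxidase 1480943 had 13.95, 136 and 110.4 CPM on pine, against 8.12, 7.99 and 7.05 CPM on maltose (log2 fold change 3.49, SE 0.62, adjusted p = 0.00034), with pine replicate 1 near the maltose level. Among the AA3_2 enzymes, which include aryl-alcohol and glucose oxidases and dehydrogenases, 1429888 had 84.1, 78.2 and 78.5 CPM on pine, against 0.8, 1.83 and 2.79 CPM on maltose (log2 fold change 5.46, SE 0.38, adjusted p = 1.9e-07). In the other direction, AA3_2 1462838 had 7.96, 4.45 and 5.91 CPM on pine, against 44.7, 66.9 and 56.7 CPM on maltose (log2 fold change -3.20, SE 0.26, adjusted p = 5.3e-07).

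The list of cytochrome P450s, haem monooxygenases that hydroxylate lipids, aromatics and other small molecules, held 61 transcripts, which are only part of the P450 genes of this fungus. Of these 61, 34 rose, 19 fell and 8 did not pass the test, with a median of 1.12. The risen ones were 55.7% of the list, against 29.1% of all transcripts tested, and the fallen ones 31.1%, against 28.8%. The list holds only transcripts that the study's own table gives as changed on pine or aspen in these samples, so its counts are not independent evidence. Gene 1297918 had 3850.2, 1762 and 1861 CPM on pine, against 8.12, 9.52 and 15.2 CPM on maltose (log2 fold change 7.83, SE 0.43, adjusted p = 4.6e-08). Gene 1362558, with 2 genes between them in the reference order, had 2346, 1313 and 1964 CPM on pine, against 17.1, 17.2 and 19.05 CPM on maltose (log2 fold change 6.72, SE 0.30, adjusted p = 1.9e-08). Gene 1362447 had 190.0, 168 and 177 CPM on pine, against 1.30, 0.83 and 1.95 CPM on maltose (log2 fold change 7.03, SE 0.39, adjusted p = 4.7e-08). Pine over aspen was 2.95 for 1297918 (adjusted p = 0.00013), 2.57 for 1362558 (adjusted p = 3e-05) and 2.73 for 1362447 (adjusted p = 0.00012). The P450 with the largest fall, 1461314, had 0.865, 0.41 and 0.643 CPM on pine, against 9.66, 10.5 and 13.9 CPM on maltose (log2 fold change -4.13, SE 0.38, adjusted p = 1.5e-06).

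**Figure D3:**
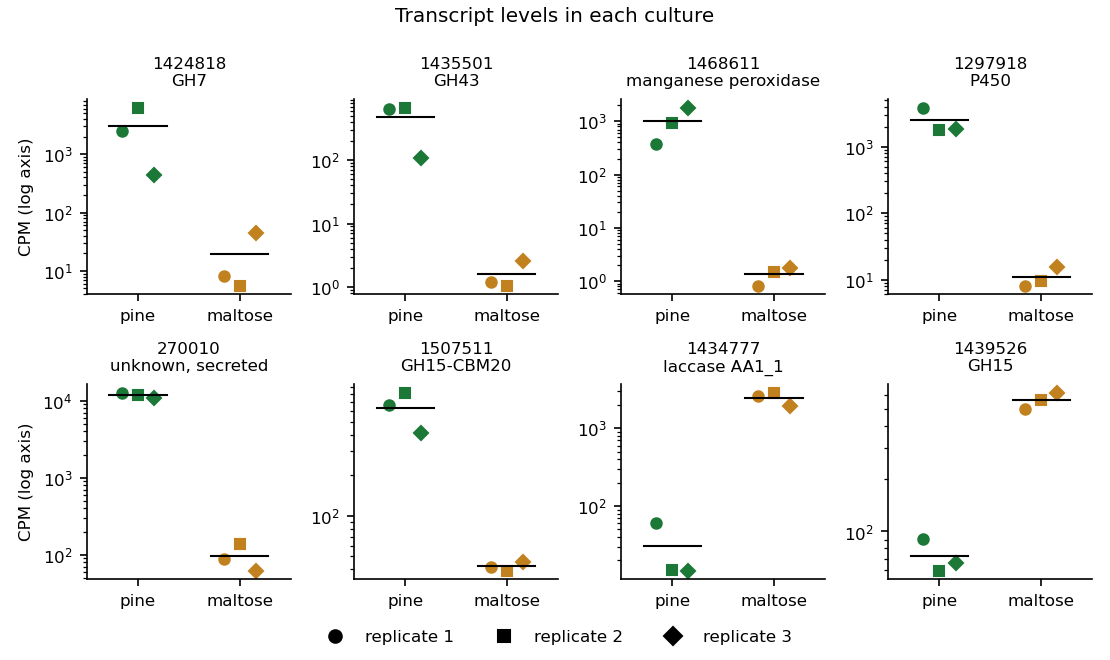
CPM on a log axis in each culture, pine left and maltose right, for 8 transcripts; marker shapes are replicates 1 to 3 and bars are means. The GH7, GH43 and peroxidase transcripts are widely spread among the pine cultures and the unknown protein 270010 is not, and the laccase and GH15 1439526 are lower in every pine culture.

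Transcripts for enzymes of maltose and starch moved both ways. Of 9 starch and maltose hydrolases 7 rose and 2 fell, with a median of 0.89. The risen were 77.8%, against 29.1% of all transcripts tested. The fallen were 22.2%, against 28.8% of all, so they are not above the share over all. With scaling by library size alone, 4 of the 9 rose. GH15 1439526, of the glucoamylase family that frees glucose from starch and maltose chains, had 91.2, 59.9 and 66.3 CPM on pine, against 502, 563 and 616 CPM on maltose (log2 fold change -2.95, SE 0.22, adjusted p = 2.9e-07). A second GH15, 1507511, which carries the starch-binding module CBM20, went the other way with 663, 817 and 414 CPM on pine, against 41.8, 39.3 and 45.4 CPM on maltose (log2 fold change 3.91, SE 0.37, adjusted p = 2.1e-06). GH31 1468129, of a family of α-glucosidases, had 204, 212 and 104 CPM on pine, against 32.4, 34.99 and 25.4 CPM on maltose (log2 fold change 2.49, SE 0.27, adjusted p = 6.1e-06). In each of the 3, the pine and maltose cultures did not overlap.

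Enzymes of the fungus' own cell wall and glycans mostly rose by smaller steps. Of 38 cell wall glucanases 21 rose and 5 fell, and of 22 chitin-active enzymes 14 rose and 4 fell. Of 11 α-mannosidases 10 rose and none fell, and of 32 glycosyltransferases 18 rose and 4 fell. In this order, the medians were 0.84, 1.43, 1.31 and 0.75. The risen were 55.3%, 63.6%, 90.9% and 56.2%, against 29.1% of all transcripts tested. The fallen were 13.2% of the glucanases, 18.2% of the chitin-active enzymes and 12.5% of the glycosyltransferases, against 28.8% of all. Without pine replicate 1, 1 α-mannosidase passed as lowered. GH76 320973, of a family that acts on fungal mannan, had 244, 408 and 218 CPM on pine, against 8.41, 7.97 and 6.10 CPM on maltose (log2 fold change 5.28, SE 0.29, adjusted p = 4.7e-08). The chitin deacetylase family member CE4 1433098 had 307, 689 and 501 CPM on pine, against 22.6, 26.6 and 29.2 CPM on maltose (log2 fold change 4.26, SE 0.30, adjusted p = 2e-07), and pine over aspen was 2.53 (adjusted p = 8.1e-05). GH92 1453868, of an α-mannosidase family, had 439, 264 and 248 CPM on pine, against 8.65, 9.96 and 15.1 CPM on maltose (log2 fold change 4.82, SE 0.31, adjusted p = 1.3e-07). Of the chitinase family GH18, 1364582 had 7.32, 11.97 and 9.32 CPM on pine, against 0.592, 0.387 and 0.526 CPM on maltose (log2 fold change 4.24, SE 0.37, adjusted p = 1.1e-06). In contrast, GH18 1444708 fell, with 6.11, 6.50 and 15.4 CPM on pine, against 35.5, 33.4 and 29.7 CPM on maltose (log2 fold change -1.82, SE 0.33, adjusted p = 0.00037). The glucanase GH55 1377179 had 381, 333 and 62.4 CPM on pine, against 8.83, 10.4 and 16.7 CPM on maltose (log2 fold change 4.43, SE 0.56, adjusted p = 2.4e-05). The glycosyltransferase GT1 289705 fell, with 6.49, 2.80 and 12.9 CPM on pine, against 139, 148 and 301 CPM on maltose (log2 fold change -4.73, SE 0.50, adjusted p = 5e-06). Expansin-related proteins, thought to loosen walls without cutting them, numbered 10, of which 3 rose, 4 fell and 3 did not pass the test. Over all transcripts tested, 29.1% rose and 28.8% fell, so that the 3 of 10 that rose are near the share over all. Expansin-related 1373750 had 9.92, 5.47 and 10.5 CPM on pine, against 186, 183 and 129.8 CPM on maltose (log2 fold change -4.27, SE 0.31, adjusted p = 2.9e-07).

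The study also identified the proteins secreted into the media, and the transcripts can be read against those lists. Among all transcripts tested, 29.1% rose and 28.8% fell. Of 45 proteins listed for the pine secretome and not the maltose one, 37 had transcripts that rose (82.2%) and 2 had transcripts that fell (4.44%). Without maltose replicate 1 or 3 or pine replicate 1 or 2, 1 fell. Of 21 listed for maltose and not for pine, 9 rose (42.9%) and 8 fell (38.1%), with a median of 0.02. With scaling by library size alone, 8 rose and 9 fell of these 21. Of these, 1369309, with no conserved domain, had 156, 74.5 and 38.8 CPM on pine, against 4061, 4064 and 3894 CPM on maltose (log2 fold change -5.48, SE 0.47, adjusted p = 1e-06). By contrast, GH88 1378812 of the same list had 179, 164 and 81.9 CPM on pine, against 13.9, 12.3 and 8.34 CPM on maltose (log2 fold change 3.62, SE 0.31, adjusted p = 8.7e-07). Among the falls without an annotation, 1427729 had 62.5, 12.04 and 9.97 CPM on pine, against 3056, 3392 and 2688 CPM on maltose (log2 fold change -6.75, SE 0.66, adjusted p = 2.7e-06). Close behind, 1437823 had 62.8, 12.4 and 7.07 CPM on pine, against 3253, 3405 and 2097 CPM on maltose (log2 fold change -6.73, SE 0.73, adjusted p = 6.5e-06). As for the pair of laccases with the largest falls, pine replicate 1 kept the highest pine level in both.

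Proteins of unknown function, which make up most of the annotated transcripts, were among the largest falls too. Gene 1222227 was all but absent on pine, with 0, 1 and 0 counts, against 102, 139 and 211 counts on maltose. Gene 1441045, without a signal peptide, had 0.317, 0 and 0.0804 CPM on pine, against 14.9, 18.3 and 9.29 CPM on maltose (log2 fold change -6.59, SE 0.64, adjusted p = 2.5e-06). Its pine levels rest on 11, 0 and 2 counts. Gene 1341371 had 2.94, 0.616 and 0.563 CPM on pine, against 97.1, 81.3 and 65.2 CPM on maltose (log2 fold change -5.84, SE 0.53, adjusted p = 1.6e-06). For 825568, which has a signal peptide, the levels were 0.721, 0.0684 and 0.321 CPM on pine, against 24.3, 18.8 and 22.8 CPM on maltose (log2 fold change -5.82, SE 0.49, adjusted p = 8.3e-07). The protein 1430780, with a signal peptide, had 1.44, 0.274 and 0.321 CPM on pine, against 31.7, 30.3 and 22.4 CPM on maltose (log2 fold change -5.31, SE 0.51, adjusted p = 2.1e-06). Gene 1414510, without one, had 1.15, 0.274 and 1.04 CPM on pine, against 35.7, 38.4 and 34.3 CPM on maltose (log2 fold change -5.44, SE 0.45, adjusted p = 7e-07). In 1441045, 1341371, 825568, 1430780 and 1414510 replicate 1 was the highest pine culture, as in laccases 1434777 and 1363242. The pine levels of 825568 rest on 25, 2 and 8 counts.

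The 10 transcripts with the most counts on pine all rose in the model, 1 of them narrowly. They were picked by their level on pine, which favours transcripts higher there, so their shared direction is no evidence. The first, 1451576, which the study's tables do not describe, had 15854, 14142 and 17106 CPM on pine, against 1899.5, 2404 and 2642 CPM on maltose (log2 fold change 2.76, SE 0.26, adjusted p = 1.8e-06). Gene 1434042, likewise without a description, had 12282, 16804 and 12534 CPM on pine, against 1447, 1386 and 891 CPM on maltose (log2 fold change 3.48, SE 0.29, adjusted p = 7.2e-07). The narrow one, 1455676, had a log2 fold change of 0.85 (adjusted p = 0.017) and lost its call without pine replicate 3 or with scaling by library size alone. A pair of proteins with no conserved domain, both found in the pine and the maltose secretome, ran in parallel. Gene 1471512 had 10963, 16664 and 5596 CPM on pine, against 3642, 3348 and 1916 CPM on maltose (log2 fold change 1.90, SE 0.43, adjusted p = 0.0022). Gene 1471500 had 10535, 16205 and 6025 CPM on pine, against 4258, 3532 and 1820.3 CPM on maltose (log2 fold change 1.77, SE 0.44, adjusted p = 0.0042). On aspen both fell against maltose, with 755, 674 and 1584 CPM for 1471512 and 585, 633 and 1433 CPM for 1471500, with log2 fold changes of -1.56 and -1.86 (adjusted p = 0.0083 and 0.0037). Pine over aspen was 3.46 for 1471512 and 3.63 for 1471500 (adjusted p = 0.00031 for each). Reads that match both genes may be shared in these near-equal levels, since the similarity of the pair was not examined.

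Transcripts changed on pine and not on aspen were counted by a rule that also tested pine over aspen itself. By that rule 16 transcripts met the 4-fold call upwards on pine, without a call on aspen over maltose and with an adjusted p under 0.05 for pine over aspen (0.144%), and 15 were lower (0.135%). Here and below, not on aspen means only that the adjusted p was 0.05 or more there, not that a transcript stayed unchanged. Both woods were set against the same maltose cultures. The counts moved with the threshold: 28 and 44 passed when a log2 fold change on aspen under 1 in size replaced the missing call, and 58 and 40 with Benjamini-Hochberg adjustment alone. The DESeq2 Wald test gave 51 higher, trim length as a term 24 lower, and scaling by library size alone 9 higher and 37 lower. Leaving out a maltose culture gave 10, 7 or 5 raised transcripts for replicates 1, 2 and 3, and leaving out pine replicate 2 gave 10 raised and 5 lowered. Without aspen replicate 3, 23 were lowered.

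Of the 16, 6 were in the study's tables. Gene 679895, of unknown function, had 456, 1068 and 277 CPM on pine and 16.6, 11.04 and 7.90 CPM on aspen, against 15.05, 14.1 and 6.74 CPM on maltose (log2 fold change 5.65, SE 0.54, adjusted p = 2.1e-06 for pine over maltose). Aspen and maltose cultures overlapped, and pine over aspen was 5.66 (SE 0.54, adjusted p = 3.2e-05). Gene 1369226, with the domain DUF3455 and a signal peptide, had 283, 98.1 and 112 CPM on pine and 14.1, 4.61 and 8.67 CPM on aspen, against 9.57, 12.9 and 9.997 CPM on maltose (log2 fold change 3.92, SE 0.46, adjusted p = 1.2e-05 for pine over maltose). Gene 1464576, with a signal peptide, had 139, 169.5 and 360.1 CPM on pine and 34.7, 21.99 and 34.95 CPM on aspen, against 24.2, 26.3 and 27.2 CPM on maltose (log2 fold change 3.11, SE 0.34, adjusted p = 6.5e-06 for pine over maltose). Every pine culture lay above every culture on the other media in these genes. GH3 1434274 was the sole glycoside hydrolase among the 6, with 155, 245 and 187 CPM on pine and 23.2, 48.03 and 52.6 CPM on aspen, against 38.9, 37.7 and 48.4 CPM on maltose (log2 fold change 2.23, SE 0.29, adjusted p = 3.3e-05 for pine over maltose). Gene 361980 had 56.3, 74.6 and 146 CPM on pine and 16.6, 13.4 and 17.9 CPM on aspen, against 11.6, 7.88 and 9.26 CPM on maltose, and for 1361583, with a signal peptide, the log2 fold change was 2.02. In 361980 every aspen culture also lay above every maltose culture. Its aspen over maltose was 0.74 (adjusted p = 0.06), and that of 1361583 was 0.55 (adjusted p = 0.091). For 679895 and for GH3 1434274 the value was -0.01 (adjusted p = 0.98 and 0.97). The 10 outside the tables had log2 fold changes of 2.16 to 5.62. The most counted of them had 2736, 5043 and 1372 CPM on pine and 58.8, 33.7 and 23.7 CPM on aspen, against 81.5, 46.7 and 71.3 CPM on maltose.

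Of the 15 lowered transcripts 5 were in the tables. Gene 440257, the first of the lowered run of neighbours above, had 1.90, 1.64 and 3.94 CPM on pine and 25.2, 33.2 and 19.4 CPM on aspen, against 26.5, 22.5 and 28.9 CPM on maltose (log2 fold change -3.39, SE 0.33, adjusted p = 2.4e-06 for pine over maltose). Gene 1475451 had 12.5, 14.2 and 7.47 CPM on pine and 121, 40.6 and 92.1 CPM on aspen, against 155, 179 and 96.7 CPM on maltose (log2 fold change -3.65, SE 0.40, adjusted p = 7.1e-06 for pine over maltose). Gene 1431291 had 5.36, 5.27 and 5.38 CPM on pine and 34.7, 30.3 and 32.3 CPM on aspen, against 30.7, 26.1 and 50.4 CPM on maltose (log2 fold change -2.74, SE 0.25, adjusted p = 1.4e-06 for pine over maltose). Its pine cultures were nearly equal. The P450 1381215 had 9.05, 3.11 and 6.55 CPM on pine and 26.1, 24.5 and 24.6 CPM on aspen, against 34.8, 36.9 and 37.6 CPM on maltose (log2 fold change -2.54, SE 0.30, adjusted p = 1.3e-05 for pine over maltose). In it every aspen culture also lay below every maltose culture. Its aspen over maltose was -0.54 (adjusted p = 0.13) and that of 1475451 was -0.76 (adjusted p = 0.094), against -0.0014 for 440257. The fifth, 1455923, had a log2 fold change of -2.44. The 10 outside the tables had log2 fold changes of -2.42 to -2.001.

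**Figure D4:**
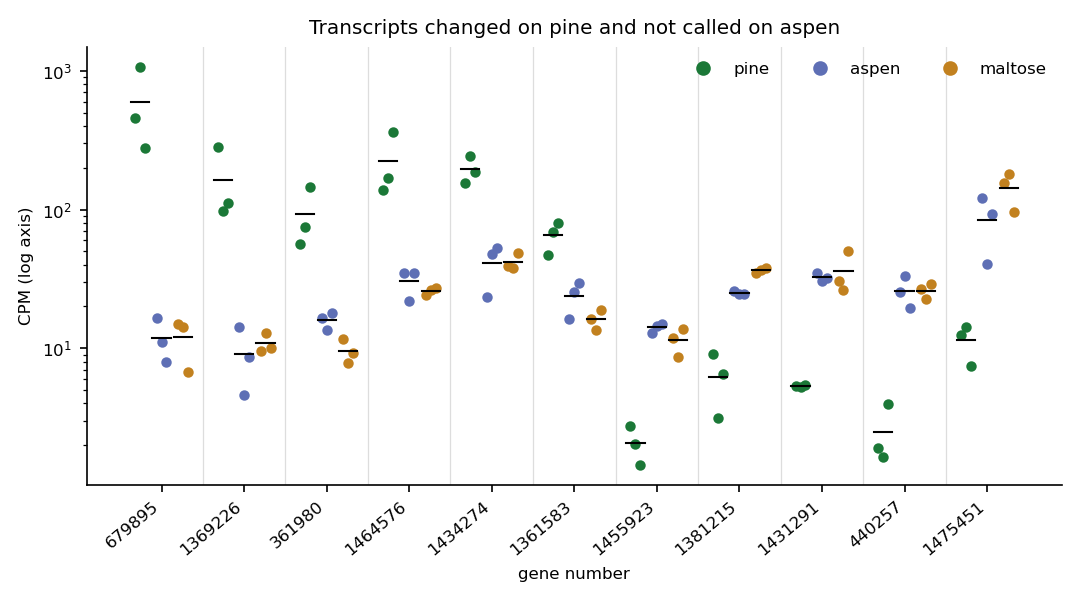
CPM on a log axis in each culture on pine, aspen and maltose for the 11 transcripts of the study's tables that were at least 4-fold changed on pine and not called on aspen; points are cultures and bars are means. In each of them the 3 pine points stand apart from the 6 others, above them in the first 6 genes and below them in the last 5.

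The pine cultures differed more among themselves than those on the other media. The median over all tested transcripts of the SD over 3 cultures, on log2 (CPM + 1), was 0.284 on pine and 0.184 on aspen, against 0.189 on maltose. In 67.3% of the transcripts the SD on pine was the larger one of pine and maltose. The SD was over 1 for 142 transcripts on pine, against 10 on maltose. edgeR's biological coefficient of variation was 0.305 for the pine libraries and 0.204 for the maltose libraries. Without replicate 1, 2 or 3 the value for pine was 0.289, 0.336 or 0.281, each above that for maltose. Replicates 1 and 3 were farthest apart, with 976 transcripts over 2-fold different, against 493 between replicates 1 and 2 and 629 between replicates 2 and 3. On maltose, replicate 3 stood apart, with 250 and 226 transcripts over 2-fold from its partners, which differed from each other in 13.

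The differences between pine cultures went by gene group, although the cultures were labelled alike. In 20 of the 22 CBM1-bearing transcripts replicate 2 was the highest pine culture, and in 20 of them replicate 3 was the lowest. Over all 11130 transcripts tested, replicate 1 was the highest pine culture in 4598, replicate 2 in 3158 and replicate 3 in 3374, and replicate 3 was the lowest in 4358. The median log2 difference of replicate 2 over replicate 3 was 2.34 for this list, 2.69 for cellobiohydrolases, 1.73 for xylan side-chain enzymes, 1.17 for pectin-active enzymes and 0.86 for AA9, against 0.02 for all transcripts. Replicate 3 was lowest in all 9 mannan-active transcripts, in 11 of 12 hemicellulose esterases and in 15 of 18 pectin-active transcripts. For the 11 class II peroxidases the difference was -0.35, with replicate 3 highest in 7. Glyoxal oxidases were lowest in replicate 1 in all 5 transcripts. For P450s replicate 1 was highest in 41 of 61. Of the 382 transcripts at least 4-fold lower on pine, replicate 1 was the highest pine culture in 265 and replicate 2 in 28, so that in most of them replicate 1 was the pine culture nearest to maltose. The pine library of replicate 2 was trimmed to 78 bases, those of the other pine and the maltose cultures to 70, and replicate 3 had the fewest counts; the part of either in the result was not tested.

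The widest spreads on pine among annotated transcripts with a mean of at least 10 CPM included enzymes and proteins of unknown function. GH7 1424818 had the largest, with an SD of 1.94 on log2 (CPM + 1). AA9 1374028 came next, with 420.2, 909.7 and 73.2 CPM on pine, against 7.76, 5.81 and 57.7 CPM on maltose (log2 fold change 4.30, SE 0.93, adjusted p = 0.0015). Its pine replicate 3 and its maltose replicate 3 were close. Gene 80106, of unknown function, had 283, 275 and 29.7 CPM on pine, against 45.5, 30.3 and 18.7 CPM on maltose (log2 fold change 2.64, SE 0.65, adjusted p = 0.0038), and there the groups overlapped. Gene 1468672, of unknown function, was lower on pine with 287, 332 and 36.6 CPM, against 890.3, 1011 and 975 CPM on maltose (log2 fold change -2.13, SE 0.58, adjusted p = 0.0064), and pine replicate 3 was again the farthest from its partners. Gene 1438052 did not pass the test, with 29.1, 6.36 and 2.41 CPM on pine, against 22.2, 19.9 and 26.7 CPM on maltose (log2 fold change -0.85, SE 0.65, adjusted p = 0.28); without pine replicate 1 it passed as lowered, with a log2 fold change of -2.38.

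**Figure D5:**
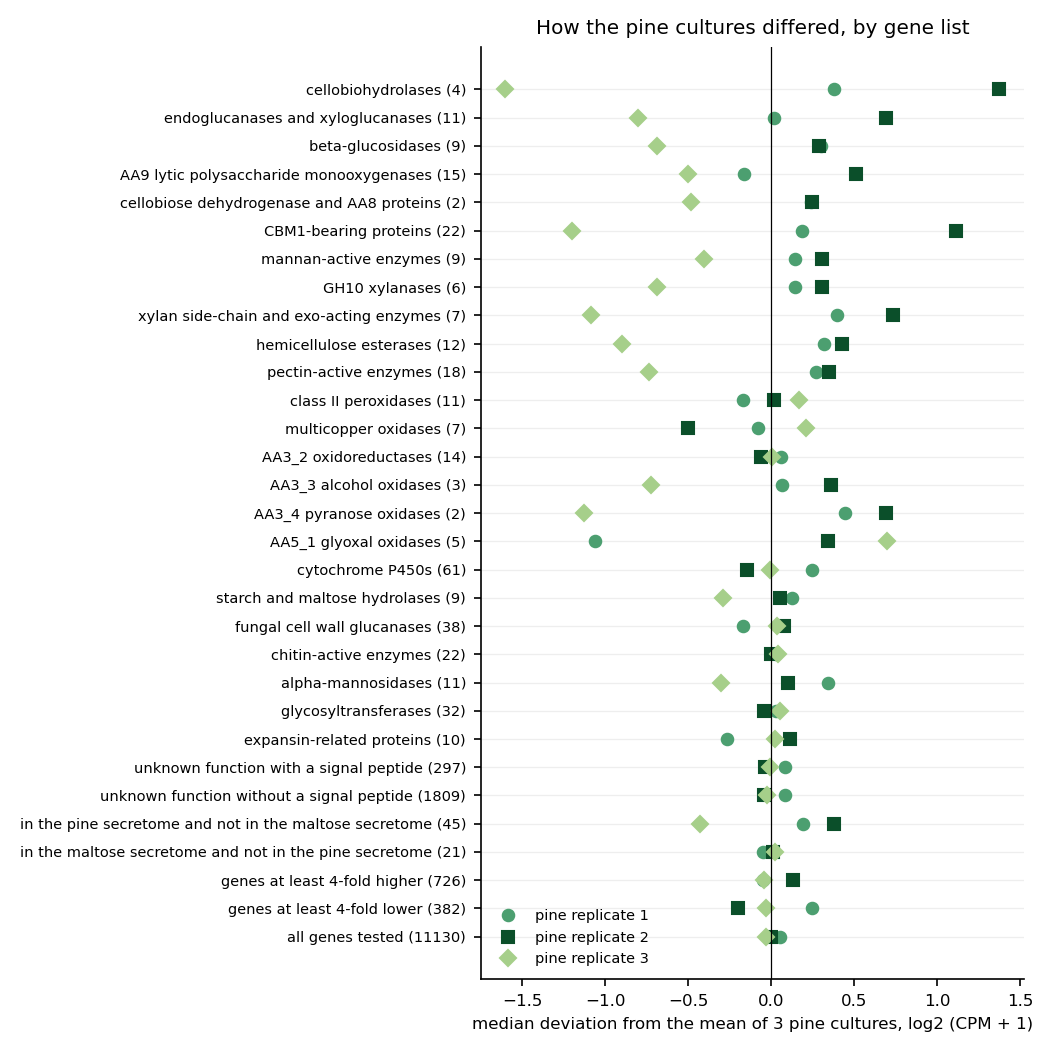
Median over the members of each gene list of the deviation of pine replicates 1 to 3 from the mean of the 3 pine cultures, on log2 (CPM + 1), with the number of members in brackets. For cellobiohydrolases replicate 2 stands at 1.37 and replicate 3 at -1.60, for glyoxal oxidases replicate 1 stands at -1.065, and for all 11130 transcripts the 3 points lie near 0.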

How the data were processed

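Raw counts of 9 libraries were used. Per the paper's methods and the submitters' notes, the authors aligned both mates with TopHat2 to the strain's genome, kept unique matches and used HTSeq for gene counts; the deposited count values were not normalized. The submitters' notes name DESeq 1.5, and the authors' normalized counts were not used. Before mapping, reads of different libraries were trimmed to 70 or 78 bases.

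In R 4.3.3, edgeR 4.0.16 was run on genes with a mean raw count of at least 5 (11130 of 12690), with TMM factors and 1 quasi-likelihood model (glmQLFit, glmQLFTest) of pine, aspen and maltose over all 9 libraries. P-values were adjusted over the 11130 genes (Benjamini-Hochberg and Bonferroni, threshold 0.05). The SE, the absolute log2 fold change over the square root of F, restates the test. The script was tested on simulated data. DESeq2 1.42.0 was an alternative, beside other scalings, filters, added terms and left-out libraries.

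Families, signal peptides and secretome lists are those of the study's tables, which cover 2474 genes. The members and all 28 lists were chosen with earlier results of these data known. Named genes were, among genes of those tables, the 10 largest rises and falls at least 4-fold without overlap, up to 4 members per list, those changed on pine and not on aspen, the 10 widest spreads on pine with a mean of at least 10 CPM and those the study chose for qPCR; also the 10 most counted on pine and, outside the tables, 2 rising and 2 falling genes. Genes 1431101, 1435757, 439739 and 1458725 were named after their values were seen. Gene order was read from assembly Pycco1, to which 12680 gene numbers matched, and no coordinates or sequences are given.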

Additional observations from a re-analysis of the deposited data

Results flagged for a closer look

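Pine over aspen passed its own test for many of the genes named (edgeR's quasi-likelihood test, Benjamini-Hochberg adjusted p). The 13 given here are the 11 called on pine and not on aspen and the 2 called in opposite directions on the woods. Among those higher on pine and not called on aspen, pine over aspen was 5.66 on the log2 scale for 679895 (adjusted p = 3.2e-05), 4.17 for 1369226 (adjusted p = 0.00011), 2.87 for 1464576 (adjusted p = 0.00014), 2.53 for 361980 (adjusted p = 0.00024), 2.25 for GH3 1434274 (adjusted p = 0.0003) and 1.47 for 1361583 (adjusted p = 0.0017). Among those lower on pine and not called on aspen, it was -3.39 for 440257 (adjusted p = 3.6e-05), -2.89 for 1475451 (adjusted p = 0.00035), -2.75 for 1455923 (adjusted p = 4.7e-05), -2.60 for 1431291 (adjusted p = 3e-05) and -2.003 for the P450 1381215 (adjusted p = 0.00059). These 11 were chosen by a rule that used the same test, so the values describe the choice.

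Genes 1471512 and 1471500, among the 10 most counted on pine, rose on pine and fell on aspen. Pine over aspen was 3.46 for 1471512 and 3.63 for 1471500. All 3 pine cultures lay above, and all 3 aspen cultures below, the 3 maltose cultures for each gene.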

How the results depend on the processing

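Scaling by library size alone moved the median log2 fold change of all transcripts to -0.39, against -0.03. It gave 484 transcripts at least 4-fold higher and 581 lower on pine, 2313 higher and 4325 lower by adjusted p alone, and 9 higher and 37 lower on pine and not on aspen. For the 2 counts of transcripts changed on pine and not on aspen, Benjamini-Hochberg adjustment alone gave 58 and 40, and an aspen log2 fold change under 1 in size gave 28 and 44. The DESeq2 Wald test gave 51 higher, and trim length as a term gave 24 lower. Leaving out each of the 9 libraries in turn, the counts ranged from 5 to 21 higher and from 5 to 23 lower. Leaving out each pine or maltose library in turn, 488 to 702 transcripts were at least 4-fold higher and 252 to 399 at least 4-fold lower. A pseudocount of 10 CPM lowered the median SD among pine cultures to 0.162. The cause of these moves was not tested. Leaving out a library also leaves fewer samples, and that part was not told apart from the culture left out.

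Whether replicate numbers pair the cultures cannot be settled with 3 cultures per group. The deviations of same-numbered pine and maltose cultures correlated at 0.07, 0.00376 and 0.157 across genes for replicates 1, 2 and 3. The value of replicate 3 was the largest of all pairs, but not every culture correlated best with its own number. A replicate block gave 766 transcripts at least 4-fold higher, 408 lower, 3323 higher by adjusted p alone, and 22 higher and 17 lower on pine and not on aspen. Of 2025 values of named genes under alternatives, 1976 kept direction and side of the threshold, 47 lost the call, 2 gained it and none turned round. Depth limits transcripts with few counts: at 28399534 to 38654866 counts per library, those under a mean of 5 counts were not tested.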
